A study of Mus musculus with 16 samples.

Results

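The RNAs described here are named after a gene on the other DNA strand: each carries the symbol of a sense gene with the suffix "os", for opposite strand. In the deposited table of 55291 genes, 302 symbols had this form and had their sense gene in the same table. Of these, 149 reached 10 counts in at least 4 of the 16 libraries, and these 149 opposite-strand RNAs and their 130 sense genes are the subject. The count values chose the members, so the level of a member is a description. At the edge of the threshold, Kcnmb4os2, Asb17os and Adap2os were just inside, each with 10 or more counts in 4 libraries and a highest count of 23, 20 and 40. Ctcflos, Ptgs2os and Gssos2 were just outside, with 3 libraries each and a highest count of 126, 17 and 15.

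LSK cells, the bone marrow fraction that lacks lineage markers and carries c-Kit and Sca-1 and in which blood stem and early progenitor cells are enriched, were purified with beads from 16 C57BL/6 mice. There were 4 mice of each genotype: wild type (WT), Asxl1Y588XTg mice carrying a transgene for a truncated form of the chromatin regulator Asxl1 (Asxl1Tg), Srsf2P95H/+ mice with 1 mutated copy of the splicing factor gene Srsf2 (Srsf2P95H), and mice with both alleles (DM). The labels give no age or sex and name neither the promoter of the transgene nor the way the Srsf2 allele was activated. The design text gives 3 DM mice; 4 are labelled and all 4 were used.

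Antisense RNAs are transcribed from the strand opposite a gene. They may start beside its promoter and run away from it (head to head), run across its exons, or lie inside an intron, and some are known to act on the gene they overlap while others are by-products of an open promoter. Most are made at low levels, stay in the nucleus and are cleared by the nuclear RNA exosome. The Hox clusters and genes of transcription factors such as Runx2, Zeb2 and Mecom have annotated opposite-strand partners.

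The sequences of 3 of these RNAs show how closely the transcripts are interleaved. The stretches below were read from the GENCODE M21 transcripts (GRCm38) and are shown because the results turn on these members. Capitals mark bases that also lie in coding exons of the sense gene or, in Rab26os, in the small nucleolar RNA gene Snord60.
Kdm6bos: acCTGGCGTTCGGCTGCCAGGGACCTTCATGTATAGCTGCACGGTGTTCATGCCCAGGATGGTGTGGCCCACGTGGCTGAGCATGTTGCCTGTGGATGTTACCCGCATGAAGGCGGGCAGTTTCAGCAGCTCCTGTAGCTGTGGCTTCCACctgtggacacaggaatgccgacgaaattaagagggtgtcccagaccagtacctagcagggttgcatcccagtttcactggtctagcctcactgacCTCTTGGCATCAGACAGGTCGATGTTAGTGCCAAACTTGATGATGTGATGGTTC
Tnfsf13os: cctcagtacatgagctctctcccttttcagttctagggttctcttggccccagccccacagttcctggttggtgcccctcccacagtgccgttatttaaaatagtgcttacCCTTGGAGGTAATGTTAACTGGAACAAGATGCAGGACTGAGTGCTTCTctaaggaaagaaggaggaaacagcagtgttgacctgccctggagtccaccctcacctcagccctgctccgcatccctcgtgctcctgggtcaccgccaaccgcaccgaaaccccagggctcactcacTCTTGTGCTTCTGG
Rab26os: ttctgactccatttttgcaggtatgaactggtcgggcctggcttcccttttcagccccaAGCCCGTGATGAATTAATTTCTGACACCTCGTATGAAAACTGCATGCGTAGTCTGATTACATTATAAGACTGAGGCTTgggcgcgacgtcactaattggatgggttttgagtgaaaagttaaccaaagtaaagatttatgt
The Kdm6bos stretch (chr11:69401513-69401812, plus strand) holds the first 300 of 840 bases, and 203 of them lie opposite coding exons of Kdm6b. In Tnfsf13os (chr11:69684374-69684673, plus strand) 62 of 300 bases lie opposite coding exons of Tnfsf13. Rab26os (chr17:24528417-24528616, plus strand) surrounds the 78 bases of Snord60.

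This arrangement limits what the counts can show. Of 426 annotated genes whose exonic bases all lie in exons of a gene on the other strand, 422 had no count in any library, a pattern that counting without regard to strand leaves where reads from shared bases are dropped. The other 4 held 6698 counts in all, and the strand setting is not given in the sources used here. Where strand is not counted, reads from an opposite-strand RNA and reads from unspliced sense RNA at the same place cannot be told apart. In bulk RNA, fewer cells of a type and less RNA per cell cannot be told apart either. Under such counting, bases shared with another gene add few counts or none: 95 members share exonic bases with another gene, among them Kdm6bos (286 of 840 exonic bases), Tnfsf13os (253 of 1109), Hoxb5os (100 of 696) and Gimap1os (1107 of 3099).

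Total counts per library were 82.99 to 127.6 M (megacounts), of which the 149 members took 0.057 to 0.0799%. All levels are in CPM, counts per megacount after TMM scaling. The 11 LSK markers, Kit, Ly6a and Cd34 among them, were all detected (lowest mean 7.28 CPM) and summed to 2589 to 3920 CPM in every library. In DM versus WT, 1 of the 11 was higher and 1 lower at an adjusted p under 0.05 (edgeR). That is 18.2%, against 9.39% of all genes. Library WT 4 stood apart: its 7 eosinophil markers summed to 1558 CPM against 35.0 to 468 elsewhere, and its 8 immediate-early genes to 552 CPM against 1314 to 10450. All 7 eosinophil markers had a log2 fold change below 0 in DM versus WT. None passed an adjusted p of 0.05, and 6 (85.7%) had an unadjusted p under 0.05, against 30.6% of all genes (edgeR). The part of these markers in the results was not tested. B lineage markers were high in WT 4 (1238 CPM), Asxl1Tg 3 (1278) and DM 1 (941), and immediate-early genes were highest in Srsf2P95H 2. Of the 149 members, 47 had their highest CPM in WT 4. The X-chromosome RNA Xist was 2173 CPM in WT 1, 1566 in Asxl1Tg 3, 2097 and 2312 in Srsf2P95H 2 and 3, and 2228 in DM 1. In every other library it was 0.384 to 2.11 CPM. Libraries with high and low Xist were thus mixed within every genotype, in unequal numbers between genotypes. The labels give no sex, and its part in the results was not tested. Asxl1 ran from 213.2 to 226.5 CPM in WT and from 205.5 to 236.3 in the other libraries, and Srsf2 from 173 to 237 and from 180 to 294, so gene-level counts of the altered genes check no label.

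The annotation placed 148 members, 144 by symbol and 4 by a RefSeq synonym (Cd55os, Oip5os1, Pigbos1 and Prdm16os). Exons of the opposite-strand RNA and of the sense gene overlapped in 88 pairs. In 31 pairs the spans overlapped without shared exonic bases, 20 pairs lay head to head and 9 tail to tail. Their 5-prime ends were within 1000 bases of each other in 42 pairs. The members had a median of 1404 exonic bases in 3 exons, against 6092 exonic bases in their sense genes. GENCODE classes 123 of them as antisense RNAs, 8 as processed transcripts, 6 as long intergenic RNAs and 8 as protein-coding genes, among them Cebpzos, Wdr83os, Slc7a6os, Ccpg1os, Brd3os, Cdiptos and Fancd2os.

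Most members were scarce. Their median level was 0.667 CPM, 90 had a mean below 1 CPM and 7 reached 10 CPM. The 6 most abundant together held 69.4% of the members' summed CPM. Oip5os1, the conserved long noncoding RNA also called Cyrano that binds the microRNA miR-7, led with 239 CPM. Its mean was 238 ± 33.9 CPM in WT (SD, n = 4 mice, as for all means below). Asxl1Tg mice had 211 ± 19.8, Srsf2P95H mice 241 ± 24.2 and DM mice 267 ± 17.2 CPM, with ranges that overlapped between WT and each mutant. Brip1os starts 177 bases from the DNA repair helicase gene Brip1 and reads away from it, and it had 94.6 ± 4.11 CPM in WT and 108 ± 6.91 in DM. Rab10os followed with 40.4 ± 8.93 CPM in WT and 34.5 ± 3.62 in DM. Slc7a6os (23.5 ± 1.58 in WT) and Wdr83os (19.6 ± 2.14) are protein-coding neighbours that carry the suffix. Cep83os starts 78 bases from the centriole gene Cep83 and had 23.6 ± 1.05 CPM in WT. Asxl1Tg mice had 15.5 ± 3.31, Srsf2P95H mice 21.7 ± 8.47 and DM mice 23.4 ± 1.19 CPM. All 4 Asxl1Tg mice (11.9 to 19.5 CPM) were below all 4 WT mice (22.1 to 24.5), but the difference of -0.60 in log2 did not pass the test over all genes (adjusted p = 0.101, edgeR).

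Per kilobase of exon, the median member stood at 7.99% of its sense gene (quartiles 4.09 and 17.4%, 145 pairs with a measurable sense gene), and counted over unshared bases at 8.51%. By position the medians were 7.63% where exons overlap, 7.76% where spans overlap, 8.53% head to head and 7.99% tail to tail. In 19 pairs the opposite-strand RNA was above its sense gene. The highest ratios were those of Epb41l4aos (33.1 against 0.320 CPM per kilobase), Rab26os (12.5 against 0.339) and Slc36a3os (0.460 against 0.0294). Lowest were Slmapos2 at 0.354% of Slmap, Junos at 0.360% of the immediate-early gene Jun and Arf4os at 0.593% of Arf4.

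**Figure D1:**
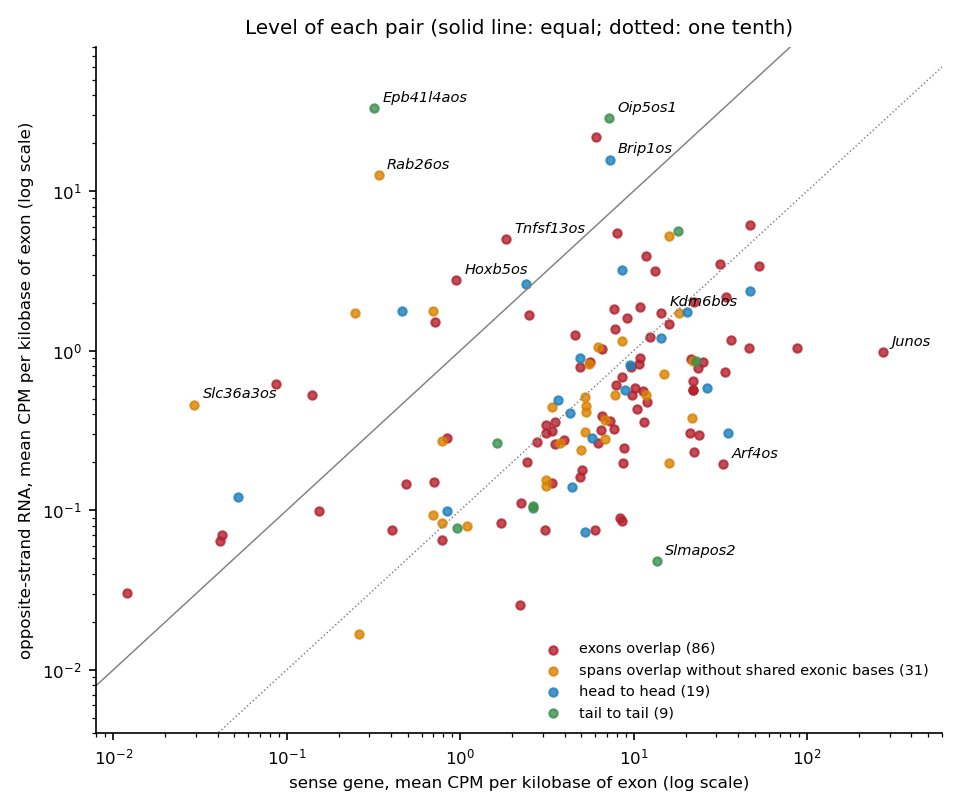
Mean level of each opposite-strand RNA (vertical axis) against its sense gene (horizontal axis), both in CPM per kilobase of exon on log scales, over 16 libraries; each point is 1 of 145 pairs, coloured by position class. Of these, 90 lie below 10% of the sense gene, and 19 lie above the solid line of equality, Epb41l4aos and Rab26os farthest.

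Between genotypes, few of these RNAs passed the test. Of the 149, 148 were kept by the filter on low counts and tested with all 22749 genes, Kcnmb4os2 being left out. In DM versus WT, 11 of 148 were called at an adjusted p under 0.05, 3 higher and 8 lower, which is 7.43% against 9.39% of all genes tested (4.65% higher and 4.73% lower). Asxl1Tg versus WT gave 2 calls, 1 in each direction (1.35% against 1.88% of all genes, 1.12% higher and 0.76% lower), and Srsf2P95H versus WT gave 1, higher (0.676% against 0.506%, 0.264% higher). At an unadjusted p under 0.05 the members' shares were 27.7, 10.8 and 17.6% in DM, Asxl1Tg and Srsf2P95H against WT, beside 30.6, 21.5 and 25.3% of all genes. With edgeR, the share called was thus near that of all genes or below it. In DM versus WT, DESeq2 called 22 of 149 members, beside 10.6% of 36786 genes. DESeq2 was run without the filter on low counts, which 148 of the 149 members passed. Its shares of all genes, here and below, thus include scarcer genes and are no like background for the members. In DM versus WT, limma-voom called 22 of 148, a smaller share than its 19% of all genes. The 14 calls fell on 12 RNAs, each with 10 or more counts in all 16 libraries. Of the 149 members, 141 reached the count threshold in at least 1 library of every group and 101 in every library, and none reached it in a single group only.

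Of the 12, 11 are described here, on 5 chromosomes (GRCm38). On chromosome 11 are Kdm6bos (chr11:69401513-69402700), Tnfsf13os (chr11:69682138-69691141), Bcas3os1 (chr11:85702200-85719744) and Hoxb5os. Chromosome 5 holds Prkag2os2 (chr5:24873544-24875934), Lrrc8dos (chr5:105814773-105818988) and Pitpnm2os2 (chr5:124194907-124200346), and chromosome 6 Gimap1os (chr6:48738346-48741444). Rab26os (chr17:24528248-24528744) and Runx2os2 (chr17:44710222-44713925) are on chromosome 17 and Dtnbos (chr12:3752543-3762146) on chromosome 12. Kdm6bos, Bcas3os1, Prkag2os2, Lrrc8dos, Pitpnm2os2, Rab26os, Runx2os2 and Dtnbos lie inside their sense gene.

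**Figure D2:**
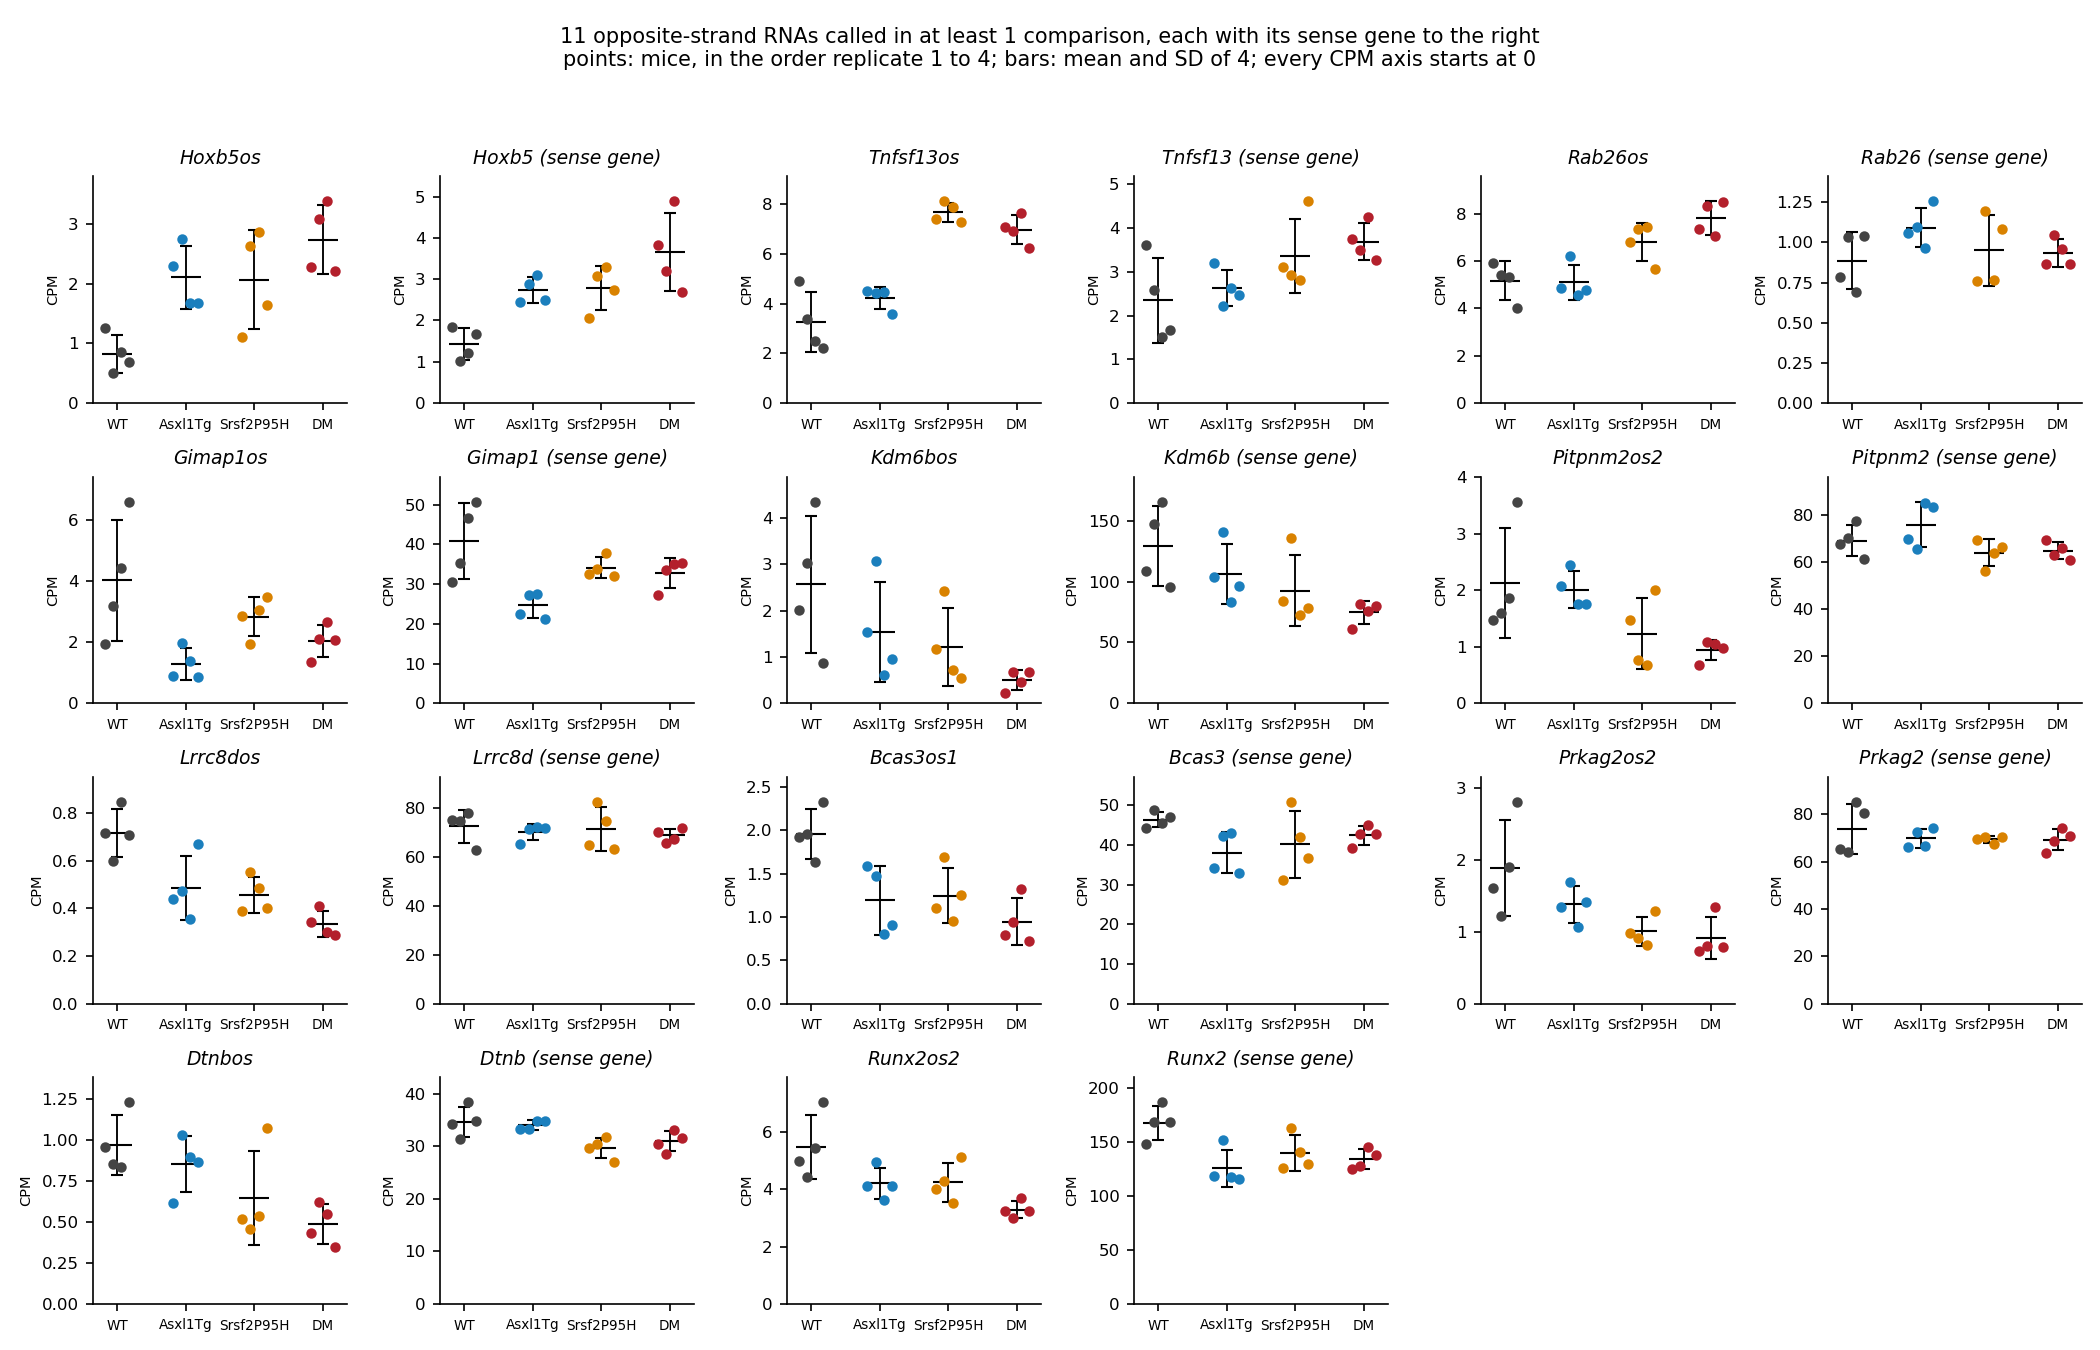
CPM of 11 opposite-strand RNAs called in at least 1 comparison (left of each pair) and of their sense genes (right of each pair), by genotype; points are mice, bars the mean and SD of 4, and every axis starts at 0. Hoxb5os, Tnfsf13os and Rab26os are high in DM mice and the other 8 are low there or, for Gimap1os, in Asxl1Tg mice, while the sense genes Hoxb5, Gimap1 and Kdm6b are called with them.

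Hoxb5os rose in Asxl1Tg and DM mice, and in Srsf2P95H mice a value of similar size did not pass. It was 1.26, 0.504, 0.854 and 0.688 CPM in the 4 WT mice, 2.30, 2.76, 1.68 and 1.68 in Asxl1Tg, 1.11, 2.63, 2.87 and 1.64 in Srsf2P95H, and 2.28, 3.09, 3.38 and 2.21 in DM. All Asxl1Tg and DM mice were above all WT mice, and 1 Srsf2P95H mouse fell within the WT range. The log2 fold change against WT was 1.35 (SE 0.32, adjusted p = 0.0421, edgeR) in Asxl1Tg and 1.73 (SE 0.33, adjusted p = 0.00716) in DM. In Srsf2P95H it was 1.32 with an adjusted p of 0.0547. The DM value was not shown to differ from that of Asxl1Tg or Srsf2P95H (adjusted p = 0.572 and 0.954).

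Hoxb5, the homeobox transcription factor gene that marks long-term haematopoietic stem cells, moved with it. Its level was 1.84, 1.01, 1.21 and 1.67 CPM in WT, 2.45, 2.88, 3.11 and 2.49 in Asxl1Tg, 2.07, 3.08, 3.29 and 2.73 in Srsf2P95H, and 3.82, 3.21, 4.88 and 2.68 in DM, with no overlap between WT and any mutant group. In log2, Hoxb5 changed by 0.93 (SE 0.23, adjusted p = 0.0488) in Asxl1Tg and 1.35 (SE 0.23, adjusted p = 0.00432) in DM, and its value in Srsf2P95H was 0.96 (SE 0.23, adjusted p = 0.0546). The ratio of Hoxb5os to Hoxb5 changed by 0.42 in log2 in both Asxl1Tg and DM against WT, which an exact permutation test did not separate from 0 (two-sided p = 0.171 and 0.143; 4 mice a group, smallest possible p = 0.0286). The annotated span of Hoxb5os also crosses Hoxb6, which was 0.813 CPM in WT and 1.54 in DM (log2 fold change 0.92, adjusted p = 0.0389). The Asxl1Tg call of Hoxb5os was lost without any 1 of WT 2, WT 3, WT 4, Asxl1Tg 1, Asxl1Tg 3, Asxl1Tg 4, Srsf2P95H 4, DM 2, DM 3 or DM 4 (adjusted p 0.0505 to 0.121), and the DM call was kept whichever library was left out.

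Tnfsf13os rose in the 2 groups with the Srsf2 mutation. Tnfsf13 encodes APRIL, a ligand of the tumour necrosis factor family that sustains plasma cells. The RNA was 4.90, 3.37, 2.48 and 2.22 CPM in WT mice, 4.50, 4.42, 4.46 and 3.57 in Asxl1Tg mice, 7.39, 8.11, 7.89 and 7.29 in Srsf2P95H mice, and 7.10, 6.93, 7.62 and 6.23 in DM. Every Srsf2P95H and DM mouse was above every WT and Asxl1Tg mouse. Against WT the log2 fold change was 1.24 (SE 0.20, adjusted p = 0.0151) in Srsf2P95H and 1.11 (SE 0.20, adjusted p = 0.00547) in DM. It was 0.39 (adjusted p = 0.264) in Asxl1Tg, and DM exceeded Asxl1Tg by 0.72 with an adjusted p of 0.0814.

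Tnfsf13 itself was 3.61, 2.59, 1.52 and 1.67 CPM in WT, 3.12, 2.92, 2.81 and 4.61 in Srsf2P95H, and 3.75, 3.50, 4.25 and 3.27 in DM, and its ranges overlapped WT. Its log2 fold changes of 0.52 (adjusted p = 0.206) and 0.65 (adjusted p = 0.0969) did not pass. The RNA rose by 0.44 more than Tnfsf13 in DM (exact permutation p = 0.0286, the smallest 4 against 4 can give) and by 0.73 more in Srsf2P95H (p = 0.0571). Tnfsf13os also shares 253 exonic bases with Tnfsfm13, the readthrough gene of Tnfsf12 and Tnfsf13, which was 0.716 CPM in WT, 0.883 in Srsf2P95H and 0.976 in DM (log2 fold changes 0.31 and 0.45, adjusted p = 0.472 and 0.239). It touches Tnfsf12 without shared exonic bases; Tnfsf12 was 2.62, 1.42 and 1.62 CPM in these groups (log2 fold changes -0.88 and -0.69, adjusted p = 0.092 and 0.128). The Srsf2P95H call was lost without WT 3, WT 4, Srsf2P95H 1 or Srsf2P95H 4 (adjusted p 0.055 to 0.0614), and the DM call was kept without any 1 library.

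Rab26os, a transcript of 497 exonic bases inside the vesicle GTPase gene Rab26, rose in DM. It was 5.92, 5.44, 5.31 and 4.01 CPM in WT and 7.38, 8.32, 7.06 and 8.51 in DM, with no overlap. Srsf2P95H mice had 6.80, 7.36, 7.44 and 5.66 CPM, and Asxl1Tg mice 4.86, 6.22, 4.57 and 4.77. The log2 fold change in DM was 0.60 (SE 0.15, adjusted p = 0.0256), and against Asxl1Tg it was 0.61 (adjusted p = 0.0571). Rab26 was far scarcer, 0.887 ± 0.177 CPM in WT and 0.934 ± 0.0890 in DM, with a log2 fold change of 0.08 (adjusted p = 0.839) that turned negative under library size scaling. Snord60, which Rab26os surrounds, was listed at 0 counts. All its 78 bases are shared with Rab26os on the same strand. Counting that drops reads from shared bases would leave it none, so the 0 does not show its level. Without any 1 of WT 3, WT 4, DM 1, DM 2 or DM 4 the Rab26os call was lost (adjusted p 0.059 to 0.073).

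Gimap1os fell in Asxl1Tg mice. Gimap1 encodes a GTPase needed by mature lymphocytes. The RNA was 1.95, 3.17, 4.41 and 6.59 CPM in WT and 0.900, 1.97, 1.40 and 0.856 in Asxl1Tg, so the groups overlapped by 1 mouse of each. The change in log2 was -1.65 (SE 0.35, adjusted p = 0.0244), while DM differed from WT by -0.98 (adjusted p = 0.074). Gimap1 fell with it, from 40.8 ± 9.52 CPM in WT to 24.6 ± 3.21 in Asxl1Tg with no overlap (log2 fold change -0.73, adjusted p = 0.0166). The ratio of RNA to gene changed by -0.88 in log2 (exact permutation p = 0.0571). The 8 B lineage markers summed to 258, 298, 235 and 1238 CPM in the same WT mice and 160 to 1278 CPM in Asxl1Tg. All 8 had a log2 fold change below 0 in Asxl1Tg versus WT (median -1.71). None was called, and 4 of 8 (50%) had an unadjusted p under 0.05 (edgeR), against 21.5% of all genes. The 8 T and natural killer markers summed to 76.7 to 119 and 88.1 to 122 CPM, and 1 of them averaged 108.5 CPM over all libraries. Of 7 tested, 5 were below 0 (median -0.25) and none was called. The part of these markers in the result was not tested. WT 4 held the highest Gimap1os and Gimap1 levels; without it, or without WT 3, Asxl1Tg 1, Asxl1Tg 3 or Asxl1Tg 4, the Gimap1os call was lost (adjusted p 0.0529 to 0.108).

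Kdm6bos had the largest fall of the 12 in DM versus WT. Kdm6b encodes a demethylase of histone H3 lysine 27, and Kdm6bos (chr11:69401513-69402700) lies wholly inside it. The RNA was 2.02, 3.02, 4.35 and 0.869 CPM in WT mice, 1.53, 3.07, 0.606 and 0.953 in Asxl1Tg mice, 1.17, 2.42, 0.728 and 0.536 in Srsf2P95H mice, and 0.216, 0.666, 0.469 and 0.666 in DM. All DM mice were below all WT mice, whose own values spanned a wide range. The log2 fold change was -2.34 (SE 0.61, adjusted p = 0.029), a 5.08-fold difference. Kdm6b fell less, from 109, 147, 166 and 95.5 CPM in WT to 61.5, 81.6, 75.6 and 80.3 in DM (log2 fold change -0.79, SE 0.22, adjusted p = 0.0408). The ratio of Kdm6bos to Kdm6b fell by 1.44 in log2 (exact permutation p = 0.0286). The 8 immediate-early genes summed to 4068, 7271, 9728 and 552 CPM in the same WT mice and 1314 to 2357 CPM in DM; their part in the result was not tested. The call was lost without WT 2, WT 3, DM 1, DM 2 or DM 4 (adjusted p 0.0555 to 0.0911), and without WT 4 it was kept.

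The 7 other RNAs that fell in DM changed 1.66- to 2.25-fold, and none of their sense genes passed; 6 of them are described. Lrrc8dos lies opposite Lrrc8d, a subunit of the volume-regulated anion channel. It was 0.716, 0.600, 0.846 and 0.706 CPM in WT and 0.342, 0.410, 0.302 and 0.288 in DM (log2 fold change -1.09, SE 0.25, adjusted p = 0.0175), whereas Lrrc8d was 72.5 ± 6.74 CPM in WT and 68.8 ± 2.755 in DM (adjusted p = 0.576). Asxl1Tg and Srsf2P95H mice lay between, at 0.485 ± 0.133 and 0.457 ± 0.0759 CPM. The ratio fell by 0.98 (exact permutation p = 0.0286). The call was lost without WT 3, DM 1 or DM 4 (adjusted p 0.0529 to 0.0556).

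Runx2os2 lies inside Runx2 without shared exonic bases; Runx2 is the Runt-domain transcription factor gene best known from bone. Runx2os2 was 4.99, 4.43, 5.44 and 7.02 CPM in WT and 3.23, 2.98, 3.71 and 3.23 in DM (log2 fold change -0.73, adjusted p = 0.0186). Runx2 was 168 ± 15.9 CPM in WT and 134 ± 9.49 in DM (log2 fold change -0.32, adjusted p = 0.0531 with edgeR, 0.0306 with DESeq2 and 0.0157 with limma-voom). The other RNAs of the gene had log2 fold changes of -0.27 (Runx2os1, adjusted p = 0.433) and -1.53 (Runx2os3, adjusted p = 0.0679). The Runx2os2 call was lost without WT 4, DM 1, DM 2 or DM 4 (adjusted p 0.0519 to 0.0615).

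Bcas3os1 was 1.93, 1.96, 1.63 and 2.33 CPM in WT and 0.792, 0.939, 1.33 and 0.724 in DM (log2 fold change -1.05, adjusted p = 0.0279). Prkag2os2, opposite the gene of a regulatory subunit of AMP-activated kinase, was 1.62, 1.22, 1.90 and 2.81 CPM in WT and 0.729, 0.802, 1.35 and 0.781 in DM (log2 fold change -1.04, adjusted p = 0.0303). Its groups overlapped by 1 mouse of each, and those of Bcas3os1 did not overlap. Both calls were lost without WT 4 and without DM 1, DM 2 or DM 4, and also without WT 2 (Bcas3os1) or WT 3 (Prkag2os2), with adjusted p of 0.0511 to 0.0911 and 0.0674 to 0.101. Bcas3 and Prkag2 differed by -0.13 and -0.09 in log2 (adjusted p = 0.494 and 0.486).

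Pitpnm2os2 and Dtnbos passed more narrowly. Pitpnm2os2, inside a phosphatidylinositol transfer protein gene, was 1.47, 1.60, 1.87 and 3.57 CPM in WT and 0.675, 1.09, 1.04 and 0.971 in DM (adjusted p = 0.0441). Dtnbos, inside the dystrobrevin beta gene, was 0.958, 0.852, 0.838 and 1.23 CPM in WT and 0.432, 0.620, 0.549 and 0.345 in DM (adjusted p = 0.0443). In each the groups did not overlap. Their log2 fold changes were -1.17 (SE 0.35) and -0.99 (SE 0.29). The calls were lost on leaving out 9 and 10 of the 16 libraries, 1 at a time. For Pitpnm2os2 these were WT 2, WT 3, WT 4, Asxl1Tg 1, Asxl1Tg 4 and any DM library (adjusted p 0.0515 to 0.146). For Dtnbos they were any WT library, Asxl1Tg 3, Asxl1Tg 4, Srsf2P95H 3, DM 1, DM 2 and DM 4 (0.0507 to 0.123).

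The ratio to the sense gene was tested for all 14 calls, with unadjusted p-values. In 8 of the 14, all in DM versus WT, it reached 0.0286, the smallest p that 4 against 4 can give. Among these, Tnfsf13os rose against its gene, and Lrrc8dos, Runx2os2, Bcas3os1, Kdm6bos, Prkag2os2 and Pitpnm2os2 fell against theirs. The pairs were chosen by the calls of the RNA, so these p-values describe the pairs and do not add to the calls.

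DM mice were also compared with each single mutant. No member was called in DM versus Asxl1Tg with edgeR (1.08% of all genes were), with 26 at an unadjusted p under 0.05 (17.6% against 17.8% of all genes); DESeq2 called 7 (3.09% of all genes) and limma-voom 6 (4.79%). The smallest p-values belonged to Rab26os and Tnfsf13os, given above, and to Fbxl12os (0.959 CPM in Asxl1Tg, 1.74 in DM, log2 fold change 0.86, adjusted p = 0.0862). In DM versus Srsf2P95H no member was called with edgeR (0.246% of all genes were), 6 had an unadjusted p under 0.05 (4.05% against 6.48%), DESeq2 called 1 (0.636% of all genes) and limma-voom none (0.404%).

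The RNA nearest to a call there was Prdm16os, which starts 703 bases from Prdm16, a zinc finger gene needed for stem cell maintenance. It was 0.600, 0.632, 0.779 and 0.743 CPM in Srsf2P95H and 1.38, 1.82, 3.31 and 1.56 in DM, with no overlap, against 0.635, 0.996, 1.496 and 1.71 in WT and 1.67, 1.54, 2.63 and 1.53 in Asxl1Tg. The log2 fold change of DM over Srsf2P95H was 1.55 (SE 0.33, adjusted p = 0.0627). Over the alternatives the adjusted p ran from 0.000473 (DESeq2) to 0.259 (without DM 3). Prdm16 was 31.9 ± 4.11 CPM in Srsf2P95H and 43.05 ± 6.44 in DM (log2 fold change 0.43, adjusted p = 0.307). Slmapos2 and Appbp2os came next (log2 fold changes -1.93 and 0.60, adjusted p = 0.546 and 0.759).

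The interaction asks whether the DM value departs from the sum of the single-mutant changes. No member passed (nor did any of the 22749 genes, 0%), 6 had an unadjusted p under 0.05 (4.05% against 11.7% of all genes), and DESeq2 (0.144% of all genes) and limma-voom (0%) called none. Fbxl12os, Cep83os and Dnmt3bos had the smallest p-values, with interaction values of 1.04, 0.71 and 1.66 in log2 (adjusted p = 0.378, 0.381 and 0.383).

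Across all members the values leaned to one side. The median log2 fold change was -0.20 in Asxl1Tg, -0.30 in Srsf2P95H and -0.35 in DM against WT, beside -0.04, -0.05 and -0.02 over all genes tested and -0.02, 0.01 and 0.04 over the sense genes. In DM 110 of 148 members were below 0, in Srsf2P95H 115 and in Asxl1Tg 104. The 3 comparisons share the WT mice. With library size alone as the scaling, the median of all genes moved by -0.11 in Srsf2P95H versus WT and by -0.10 in DM versus WT.

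The lean differed in size by position, and without 1 library the gap between positions shrank or, in Asxl1Tg, changed direction. The 66 members inside the span of their sense gene had medians of -0.27, -0.49 and -0.51 in Asxl1Tg, Srsf2P95H and DM, and the 81 tested members reaching or lying outside it -0.18, -0.16 and -0.11. The 20 head-to-head RNAs had medians of -0.095, -0.011 and 0.094 in Asxl1Tg, Srsf2P95H and DM. For the 9 tail-to-tail RNAs they were -0.175, -0.183 and -0.209. Of the 8 RNAs that fell in DM, 7 lay inside the span, as did Rab26os, which rose. The calls in DM were 8 of 66 inside the span (12.1%) and 3 of 81 outside it (3.70%), against 9.39% of all genes. Without WT 4 the medians inside and outside came to -0.09 and -0.16 in Asxl1Tg, -0.26 and -0.17 in Srsf2P95H, and -0.30 and -0.23 in DM. With limma-voom on all libraries they were -0.179 and -0.196 in Asxl1Tg, -0.325 and -0.176 in Srsf2P95H, and -0.405 and -0.182 in DM. The difference between positions was not tested.

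**Figure D3:**
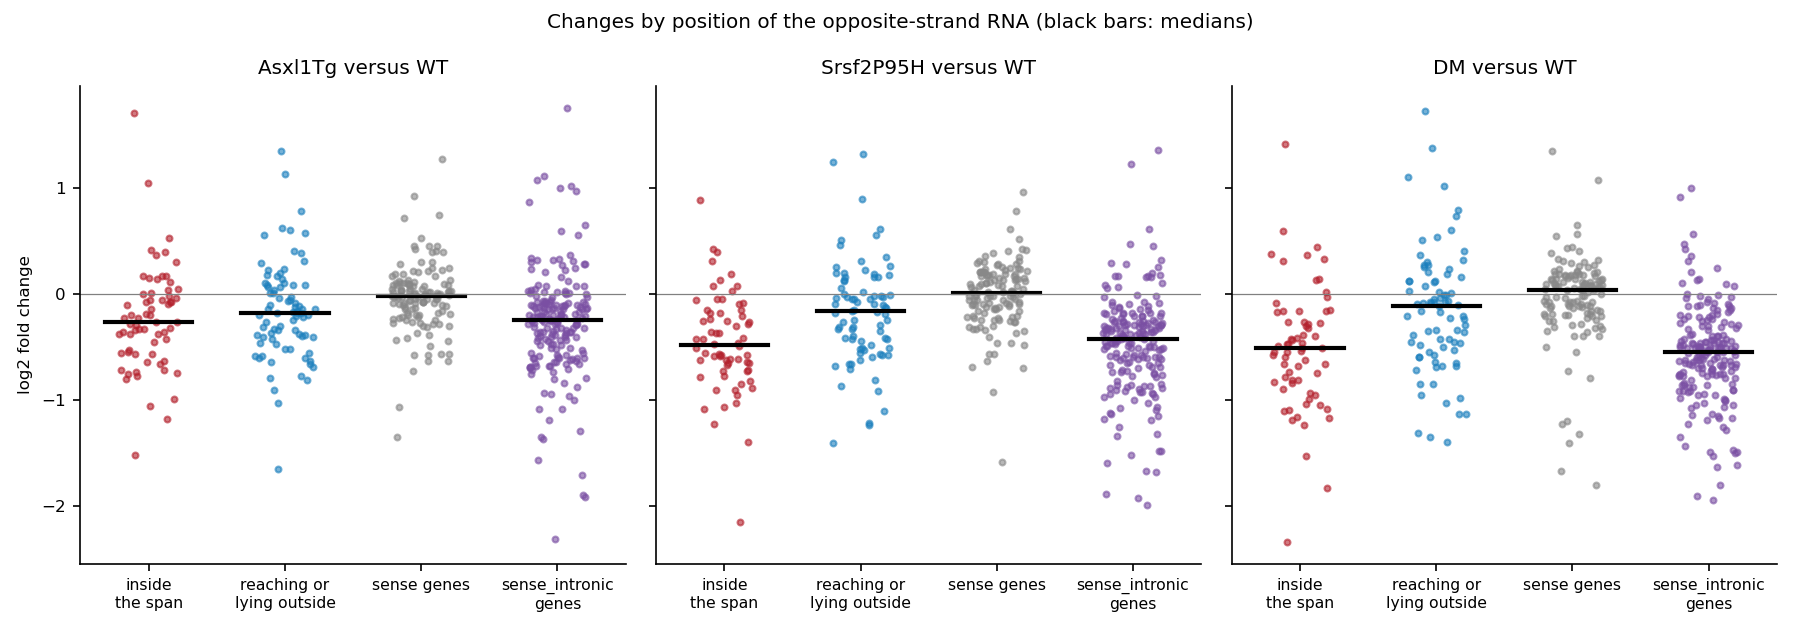
Log2 fold change against WT of opposite-strand RNAs inside the span of the sense gene and of those reaching or lying outside it, of the sense genes, and of GENCODE sense_intronic genes, in 3 comparisons that share the WT mice; each point is a gene and black bars are medians. In DM versus WT the medians are -0.51, -0.11, 0.04 and -0.54.

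Medians below 0 were also found in other GENCODE classes, whose differences from the members were not tested. GENCODE sense_intronic genes lie in an intron of a gene on the same strand, where counts hold reads from unspliced host RNA; 193 of 314 were tested, with medians of -0.25, -0.42 and -0.54. The 1428 tested genes of the class TEC had medians of -0.28, -0.37 and -0.54, and the 1229 of the class antisense, which holds most members, -0.20, -0.33 and -0.47. The 770 lincRNA genes had -0.23, -0.16 and -0.17, and the 14416 protein-coding genes 0.00, 0.04 and 0.07. Of the 193 sense_intronic genes, 17 fell in DM and none rose (8.81%, against 4.73% of all genes lower and 4.65% higher). The summed level of all 314 was 358, 385, 447 and 492 CPM in WT and 296, 305, 358 and 295 in DM, highest in WT 4. In this sum 1 gene averaged 129.6 CPM over the libraries and 52 genes were at 0 in all of them. That gene thus weighs heavily in the sum and in the covariate made from it. The 66 RNAs inside the span summed to 75.1, 69.0, 78.2 and 107 CPM in WT and to 56.6, 60.6, 74.0 and 58.7 in DM, also highest in WT 4. Those outside summed to 531 to 602 CPM in WT and 585 to 620 in DM. Oip5os1 alone averaged 239 CPM and weighs heavily in this sum. Of the 81 tested outside the span, 53 had a log2 fold change below 0 in DM versus WT. When the log2 of the summed sense_intronic level entered the fit as a covariate, no member was called in any comparison with WT and the median of the 66 was 0.04 in DM; over all genes the calls in DM versus WT went from 2135 to 30. The sizes of the changes moved unequally. In DM versus WT, Hoxb5os had 1.89, Lrrc8dos -1.08, Tnfsf13os 0.85 and Rab26os 0.51 in log2 with the covariate, beside 1.73, -1.09, 1.11 and 0.60 without it. Kdm6bos had -1.54, Dtnbos -0.60, Bcas3os1 -0.46, Pitpnm2os2 -0.29, Runx2os2 -0.27 and Prkag2os2 -0.25, beside -2.34, -0.99, -1.05, -1.17, -0.73 and -1.04. In Asxl1Tg, Hoxb5os had 1.45 and Gimap1os -0.88, and in Srsf2P95H Tnfsf13os had 1.04. The covariate differs between the groups, so its part in the result cannot be told apart from genotype.

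**Figure D4:**
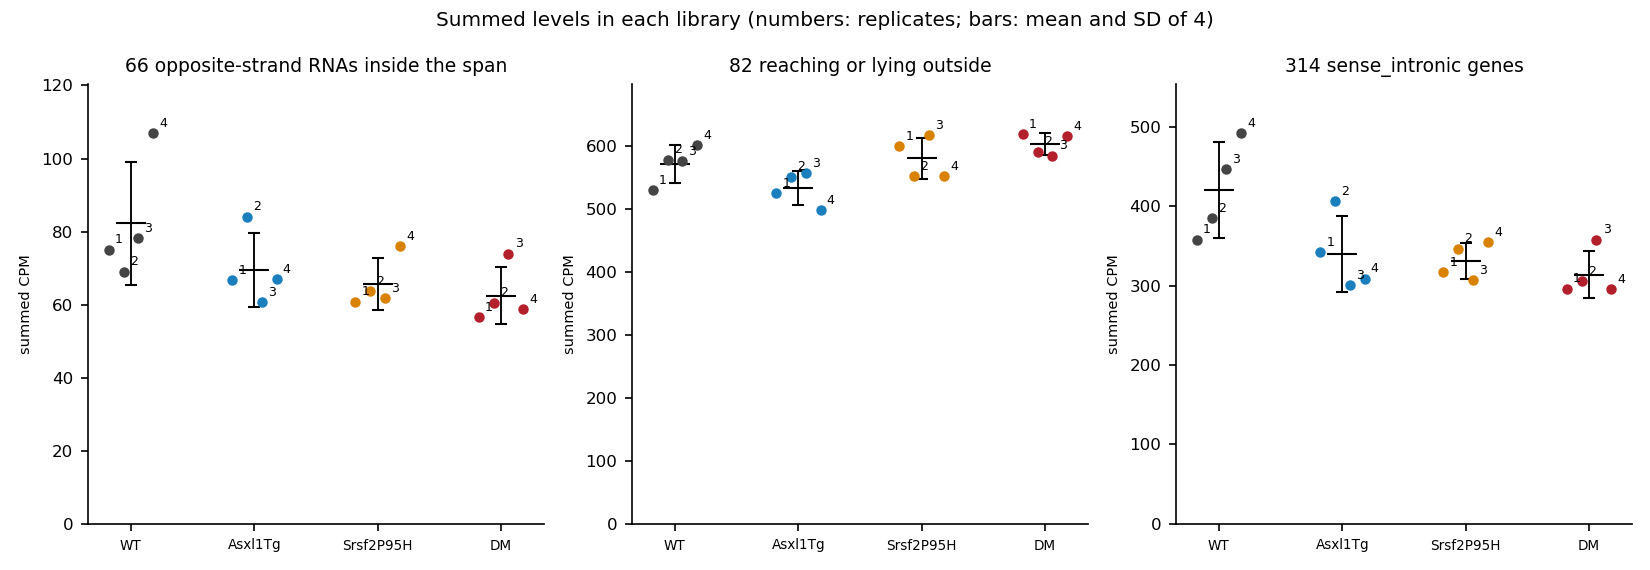
Summed CPM per library of 66 opposite-strand RNAs inside the span of their sense gene, of 82 reaching or lying outside it and of 314 sense_intronic genes, by genotype; numbers are replicates, bars the mean and SD of 4, axes start at 0. WT 4 is highest for those inside the span and for sense_intronic genes, at 107 and 492 CPM. Oip5os1, at a mean of 239 CPM, weighs heavily in the sum of those outside.

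Across pairs, changes of the RNA and of its sense gene went together in part. Over 145 pairs in which both were tested, Pearson's r between the log2 fold changes was 0.41 in Asxl1Tg, 0.28 in Srsf2P95H and 0.42 in DM against WT (Spearman's rho 0.46, 0.16 and 0.41). These are descriptions across genes, which share libraries and are not independent replicates, and members of 14 sense genes share a partner. In DM the sign was shared in 86 of 145 pairs, 59 lower and 27 higher, while in 50 pairs the RNA was lower and the gene higher and in 9 the reverse. Hoxb5 and Kdm6b were the only pairs with both partners called in DM, and Hoxb5 and Gimap1 in Asxl1Tg.

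**Figure D5:**
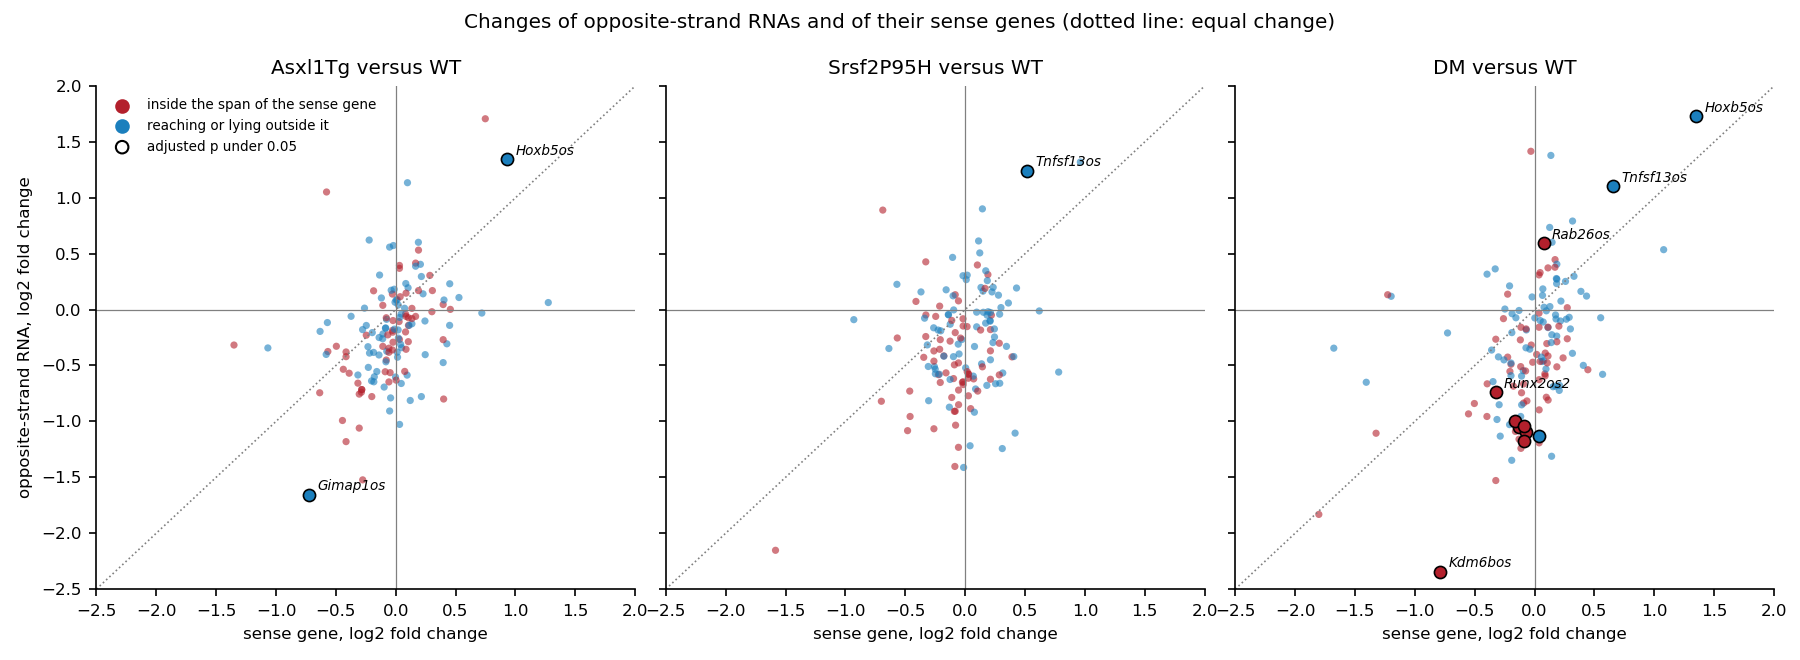
Log2 fold change of the opposite-strand RNA (vertical) against that of its sense gene (horizontal) in 3 comparisons with WT; each point is 1 of 145 pairs, red inside the span of the sense gene and blue reaching or lying outside it, with a black ring where the RNA was called. Hoxb5os lies near the dotted line of equal change, and a cluster of 6 unnamed called RNAs in DM has changes near -1 with sense genes near 0.

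From the side of the sense genes, 12 of 126 tested were called in DM versus WT (9.52% against 9.39% of all genes), 6 in Asxl1Tg (4.76% against 1.88%) and none in Srsf2P95H (0.506% of all genes), where 36 had an unadjusted p under 0.05 (28.6% against 25.3%). Of 14416 protein-coding genes, 10.9% were called in DM, 2.78% in Asxl1Tg and 0.749% in Srsf2P95H. Opposite-strand RNAs of the called sense genes mostly had no call. Rapgef3, the cAMP-activated exchange factor EPAC1, rose from 9.78 ± 0.837 to 20.65 ± 2.99 CPM (log2 fold change 1.08, adjusted p = 0.00102), while Rapgef3os2 was at 0.0913 CPM in WT and 0.130 in DM (adjusted p = 0.699). Akna fell by 0.55 in log2 and Aknaos had -0.93 (adjusted p = 0.237). Peak1 fell in Asxl1Tg and DM (-0.45 and -0.40), with Peak1os at -0.99 and -0.66 (adjusted p = 0.478 and 0.573). Zmiz1, a Notch cofactor, fell by 0.35 and Zmiz1os1 had -0.64 (adjusted p = 0.0511). Taco1 rose by 0.41 with Taco1os at -0.50 (adjusted p = 0.497), and the phosphatidylinositol synthase gene Cdipt rose by 0.27 with Cdiptos at -0.09 (adjusted p = 0.839). Kirrel3 fell by 1.32 with Kirrel3os at -1.11 (adjusted p = 0.419), and Sp3, called in DM versus Asxl1Tg (0.33, adjusted p = 0.0276), had Sp3os at -0.20 there (adjusted p = 0.656). Rapgef3 also rose in DM versus Asxl1Tg (0.85), where Rapgef3os2 had 0.40 (adjusted p = 0.853). Of the other genes called in DM versus WT, Man2c1 fell by 0.25 with Man2c1os at 0.005 (adjusted p = 0.991), and Alkbh3 fell by 0.36 with Alkbh3os1 at -0.36 (adjusted p = 0.465). Galnt6 rose by 0.45 with Galnt6os at -0.54 (adjusted p = 0.187). In Asxl1Tg, Stam fell by 0.37 with Stamos at -0.06 (adjusted p = 0.95), Rsf1 fell by 0.32 with its 2 RNAs at -0.66 and -0.59 (adjusted p = 0.504 and 0.319), and Runx2 fell by 0.42 with its 3 RNAs at -0.42, -0.38 and -1.18 (adjusted p 0.199 to 0.278).

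Among members opposite genes of blood cells and homeobox genes, those not yet described had no call. Mecomos, opposite the stem cell regulator Mecom (Evi1), was 2.38 CPM in WT and 1.80 in DM, and Zeb2os, opposite the repressor gene Zeb2, 1.28 and 1.66. Bach2os was 0.809 and 0.503 CPM, Cebpzos 4.08 and 4.16, Fancd2os 0.143 and 0.0857, and Ptgs2os2 0.179 and 0.112. Hoxb3os was 0.430 CPM in WT and 0.744 in DM (log2 fold change 0.79, adjusted p = 0.161), beside Hoxb3 at 2.68 and 3.34. Adjusted p-values of these 7 in DM versus WT ran from 0.161 to 0.913. Of 13 tested homeobox genes on the list, Hoxb5, Hoxb6 and Hoxb8 rose in DM and none fell (23.1%, against 4.65% of all genes higher and 4.73% lower). In Asxl1Tg, Hoxb5 and Hoxb8 rose (15.4%, against 1.12% of all genes higher), Hoxb8 by 2.78 in log2 (adjusted p = 0.00512, edgeR). The list's median in DM was 0.20 against -0.02 over all genes.

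Where a sense gene has several opposite-strand RNAs, 14 genes with 33 members in all, their values were in part alike and in part of opposite sign. Beside the called Prkag2os2, Prkag2os1 had a log2 fold change of -0.84 in DM versus WT (adjusted p = 0.0592). Bcas3os2 had -1.16 (adjusted p = 0.196) and Pitpnm2os1 -0.67 (adjusted p = 0.19). The 3 RNAs of the ubiquitin ligase gene Ube4b had -0.63, -1.19 and -0.90 in DM, with none called, and Ube4b 0.04. For Lrp8 the values were -0.29, -0.51 and 0.41, for Pard3b -0.03, 0.31 and -0.16, and for Rapgef4 -0.16, 0.37 and -0.41. Plxna4os1 had 0.33 and Plxna4os2 -0.46, Lrrc75aos1 -1.24 and Lrrc75aos2 -0.16, and Atxn7l1os1 and Atxn7l1os2 -0.49 and -0.48. Arhgap27os2 and Arhgap27os3 had -0.42 and 0.14, Rsf1os1 and Rsf1os2 -0.51 and -0.96 (adjusted p = 0.538 and 0.0709), and Usp46os1 and Usp46os2 -0.26 and 0.02. These RNAs share a host, so they are not independent.

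Genes of the machinery known to clear or sense such RNAs had few calls. Of 18 tested genes of the nuclear RNA exosome and its adaptors, Zcchc7 fell in DM (log2 fold change -0.30, adjusted p = 0.0447, edgeR). No other passed against WT, so 5.56% were called in DM, against 9.39% of all genes. Most were higher in value: 15, 16 and 14 of the 18 were above 0 in Asxl1Tg, Srsf2P95H and DM, with medians of 0.18, 0.19 and 0.14 against -0.04, -0.05 and -0.02 over all genes. At an unadjusted p under 0.05 there were 44.4, 61.1 and 44.4% of them, beside 21.5, 25.3 and 30.6% of all genes. Of 16 genes of double-stranded RNA sensing and processing, edgeR called none in a comparison with WT, with 9, 3 and 6 (56.25, 18.75 and 37.5%) at an unadjusted p under 0.05 in Asxl1Tg, Srsf2P95H and DM. Of 9 tested genes on a list of antisense RNAs named in other ways, 2 were called in Asxl1Tg and 2 in DM (22.2% in each, against 1.88 and 9.39% of all genes). Airn, the antisense RNA of the imprinted Igf2r locus, fell in Asxl1Tg (-1.68, adjusted p = 0.0366, edgeR) and DM (-1.35, adjusted p = 0.0376). Kcnq1ot1, the antisense RNA of the imprinted Kcnq1 locus, fell by 0.46 in DM (adjusted p = 0.041). Tsix rose in Asxl1Tg (1.63, adjusted p = 0.0438), but it lies across Xist, whose level ran from 0.384 to 2173 CPM between WT mice, and where strand is not counted the RNAs cannot be told apart.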

How the data were processed

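RNA from bone marrow LSK cells of 16 individual mice was sequenced as paired-end libraries made with the NEB Ultra RNA kit, per the labels' protocols. The authors deposited raw counts per gene; FastQC, Trimmomatic 0.38, STAR 2.7.0e, HTSeq 0.11.2 and mm10 are named in the submitters' processing notes, and the strand setting is not given in the sources used here. Library totals of 82.99 to 127.6 M counts set the precision, and members with few counts have the least. Columns were matched to samples by their labels, the Asxl1Tg columns because theirs was the one genotype left.

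Counts were fitted across all 16 libraries with edgeR 4.0.16 in R 4.3.3 (TMM, filterByExpr with a minimum count of 10, robust quasi-likelihood test), with Benjamini-Hochberg adjustment over 22749 genes and calls at an adjusted p under 0.05. Ratios of an RNA to its sense gene were compared by an exact permutation test of log2 CPM with a prior count of 2. Alternatives used DESeq2 1.42.0, limma 3.58.1, other scalings, filters and designs, and each library left out. Positions and sequences are from GENCODE M21 (GRCm38). Named are all called members but 1, which is not reported here, the 6 most abundant, the 3 highest and 3 lowest per kilobase, the 3 smallest p-values where fewer than 3 were called, partners of called sense genes, of blood-cell and homeobox genes and of shared sense genes, and those at the count threshold. From the list of other antisense RNAs, 3 protein-coding genes were left out after the data were seen. Genes put on that list by name, such as Wrap53, were kept whatever their class. The members and lists were chosen with earlier results of these data known.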

Additional observations from a re-analysis of the deposited data

Results flagged for a closer look

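Each genotype's 4 values were checked for 1 mouse far from the rest, in 48 groups of values of the 12 called RNAs, and chance marks about 1 in 20 such groups. In DM, Prkag2os2 was 1.351 CPM in replicate 3 and 0.729 to 0.802 CPM in the others. In Asxl1Tg, Tnfsf13os was 3.57 CPM in replicate 4 and 4.42 to 4.50 CPM in the others.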

How the results depend on the processing

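Over 26 alternatives per comparison, the 14 calls of opposite-strand RNAs kept their direction in every one that gave a value. The number called in Asxl1Tg versus WT was 2, and it was 6 with DESeq2 (4.83% of all genes tested there), 1 with library size as the scaling (1.42%), 0 with the compared groups only (0.34%), and 0 to 4 on leaving out 1 library. In Srsf2P95H versus WT it was 1, and 9 with DESeq2 (6.65%), 3 with limma-voom (7.18%), 0 with the compared groups only (0.00932%), 2 with the replicate block (4.18%) and 0 to 3 on leaving out 1 library. In DM versus WT it was 11, and 22 of 149 with DESeq2 (10.6%), 22 of 148 with limma-voom (19%), 7 with no filter (3.96%), 8 with the replicate block (10.1%) and 2 to 15 on leaving out 1 library, with 6 or fewer without WT 2, WT 3, WT 4, DM 1, DM 2 or DM 4. In DM versus Asxl1Tg it was 0, and 7 with DESeq2 (3.09%), 6 with limma-voom (4.79%) and 0 to 2 on leaving out 1 library. In DM versus Srsf2P95H it was 0, and 1 with DESeq2 (0.636%), with no filter (0.184%) and with the replicate block (0.273%), and 0 to 1 on leaving out 1 library. DESeq2 and the no-filter setting ran without the filter on low counts, so their shares of all genes include scarcer genes. The cause of the differences between settings was not tested.

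2 alternatives were chosen after seeing the data. Without both WT 4 and Srsf2P95H 2, the calls were 0 in Asxl1Tg versus WT (0.923% of all genes), 8 of 148 in DM versus WT (6.49%) and 4 of 148 in DM versus Asxl1Tg (2.85%). With the summed sense_intronic level as a covariate they were 0 in each comparison with WT (0.193, 0.0044 and 0.132% in Asxl1Tg, Srsf2P95H and DM) and 1 in DM versus Srsf2P95H (0.316%). In DM versus WT, the log2 fold changes of Hoxb5os (1.89), Lrrc8dos (-1.08) and Tnfsf13os (0.85) stood beside 1.73, -1.09 and 1.11 without it, and those of Prkag2os2 (-0.25) and Runx2os2 (-0.27) beside -1.04 and -0.73. Replicate numbers are not stated to pair mice: over 24 same-numbered pairs deviations from the group means had correlations between -0.299 and 0.298, and for 3 of 16 libraries the best match had the same number.

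Some sense genes near 0 in DM versus WT changed sign: Rab26 was -0.025 with library size as the scaling and -0.027 (without WT 3) to 0.165 (without WT 4) on leaving out 1 library and Prkag2 0.12 with the covariate. Counted over unshared bases, the median level per kilobase was 8.51% of the sense gene. Library size as the scaling moved the share of higher calls among all genes from 49.6 to 27.0% in DM versus WT and from 52.2 to 18.4% in Srsf2P95H versus WT.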
